A study of Mus musculus with 12 samples.

Results

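The genes described here are 10 markers that separate the main kinds of mouse blood monocyte: 4 of classical, Ly6C-high monocytes (Ly6c2, Fn1, F13a1 and Vcan) and 6 of patrolling, Ly6C-low monocytes (Nr4a1, Treml4, Ace, Itgax, Cd300e and Ear2). They were chosen by name, as known markers, with earlier results of these data in view, and all 10 are among the 23479 genes of the deposited table. All 10 were also among the 11122 genes that passed the minimum level for testing, a mean of 10 normalized counts over the 12 libraries.

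Classical monocytes leave the bone marrow, enter inflamed tissue and there give rise to macrophages and dendritic cells. Some convert in blood, spleen and marrow into patrolling monocytes, which crawl along the vessel wall, and this step depends on the nuclear receptor Nr4a1 and on the transcription factor C/EBP beta. Monocytic myeloid-derived suppressor cells (M-MDSC) resemble classical monocytes but restrain T cells, and polymorphonuclear ones (PMN-MDSC) resemble neutrophils.

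Both populations were sorted from spleens of C57BL/6 mice that all carried B16 melanoma tumours, and their total RNA was sequenced. In the lymphodepleted groups (LD) the mice had received cyclophosphamide, a DNA-alkylating drug, and fludarabine, a purine analogue, once the tumours measured over 25 mm2, and spleens were taken 7 days after treatment. Control mice (Ctrl) were left untreated. Each population under each treatment has 3 libraries, numbered 001 to 003, which makes 4 groups, and flow cytometry gave cells of over 99% purity. The sort markers, the age and the sex of the mice are not given in the sources used here. Cells from tumours were not analysed here.

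Depth ran from 8906045 to 16242926 reads in genes per library. The deposited values are reads divided by 1 size factor per library, called normalized counts below. The libraries differed in other cell programmes that are set out here once because they move with LD. The summed level of 10 cell division genes was 1180 to 1455 in M-MDSC Ctrl and 4018.0 to 13462 in M-MDSC LD, and that of 10 granulocyte-monocyte progenitor genes was 271 to 335 and 1763 to 8103, with LD replicate 001 highest in both lists. In PMN-MDSC the cell division sum was 2806 to 3693 in Ctrl and 10701, 2109 and 3367 in LD replicates 001 to 003, and the progenitor sum was 399.9 to 522 and then 1572, 632 and 970, so LD replicate 001 was highest there too. The summed level of 9 neutrophil genes was 7232 to 8619 in M-MDSC Ctrl, 10969.6 to 41696 in M-MDSC LD (again replicate 001 highest) and 375922 to 643085 in PMN-MDSC. The labels were matched by most markers, not all. In Ctrl all 9 neutrophil genes were lower in M-MDSC than in PMN-MDSC, as were 36.8% of all genes. Of 4 genes listed for M-MDSC, Ccr2 averaged 12866 in M-MDSC Ctrl and 374 in PMN-MDSC Ctrl, and Csf1r 14974 and 7998. Itgam went the other way (10380 and 33635), and Ly6c1 was too low to test. In bulk samples such as these, fewer cells of a type and less RNA per cell cannot be told apart.

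The first point to settle was whether Ly6c2 reads could come from its neighbour Ly6c1, because both genes lie on chromosome 15 and encode nearly the same protein. The coding sequences in the GENCODE annotation of GRCm38 are 393 bases long each and 97.7% identical, and 47.1% of the 50-base windows of Ly6c2 occur unchanged in Ly6c1. A stretch that does tell them apart is shown, bases 6 to 65 of each coding sequence, with the 6 differing bases in capitals.
Ly6c2: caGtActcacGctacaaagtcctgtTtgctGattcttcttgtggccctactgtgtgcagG
Ly6c1: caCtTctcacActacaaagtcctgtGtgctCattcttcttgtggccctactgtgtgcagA
The table assigned 20249 reads to Ly6c2 over the 12 libraries and 15 to Ly6c1. A read from a shared window cannot be placed in either gene, so the level of Ly6c2 is uncertain to that extent. Ear2 is a low gene of a similar family: its coding sequence is 97.0% identical to Ear10 and 95.1% to Ear1, and 185 reads were assigned to Ear2, 38 to Ear5, 33 to Ear1 and 22 to Ear10.

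Members called after LD are also shown, for 3 of them, by the 250 bases before their transcription start, from RefSeq promoters of GRCm38.p6, in which 9 of the 10 members were matched (the entry for Fn1 is missing). They are Ly6c2 (chr15:75111972-75112221, minus strand), Itgax (chr7:128129300-128129549, plus strand) and Treml4 (chr17:48264045-48264294, plus strand), and capitals mark a match to GAGGAAGT, a form of the motif of the myeloid factor PU.1.
Ly6c2: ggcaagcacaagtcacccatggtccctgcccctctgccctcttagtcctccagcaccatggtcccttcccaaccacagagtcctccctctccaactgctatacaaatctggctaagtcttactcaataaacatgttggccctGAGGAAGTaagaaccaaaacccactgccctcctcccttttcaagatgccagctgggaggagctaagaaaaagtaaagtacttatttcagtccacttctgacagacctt
Itgax: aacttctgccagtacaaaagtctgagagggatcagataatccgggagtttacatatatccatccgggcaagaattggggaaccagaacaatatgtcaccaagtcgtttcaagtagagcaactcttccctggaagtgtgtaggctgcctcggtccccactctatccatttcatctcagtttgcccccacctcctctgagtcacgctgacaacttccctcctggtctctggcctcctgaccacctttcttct
Treml4: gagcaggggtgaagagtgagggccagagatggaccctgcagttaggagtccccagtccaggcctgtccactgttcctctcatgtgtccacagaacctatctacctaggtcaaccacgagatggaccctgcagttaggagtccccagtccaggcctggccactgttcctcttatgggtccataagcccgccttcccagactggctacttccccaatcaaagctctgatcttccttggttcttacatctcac
Of 32851 promoters of 300 bases (250 before the start and 50 after), 3.2% hold GAGGAAGT on either strand, 10.8% hold TTGCNNAA (C/EBP) and 1.51% hold AAAGGTCA (NR4A). Among the 9 matched members GAGGAAGT was found for Ly6c2 and, at a second start site, for F13a1, and TTGCNNAA was found for Ear2. AAAGGTCA was in none of the 9 windows, which says only that these letters are not there.

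Ly6c2 (chr15:75108158-75111970), which encodes the surface protein recognised by Ly6C antibodies, rose in PMN-MDSC after LD to normalized counts that overlapped those of M-MDSC. In PMN-MDSC Ctrl the 3 libraries held 649.8, 395.5 and 523.6 normalized counts. In PMN-MDSC LD they held 1978.8, 1757.7 and 2187.6. The groups did not overlap, and the rise was 3.83-fold (log2 difference 1.94 ± 0.16 SE, limma adjusted p = 2.39e-05). In M-MDSC Ctrl the values were 1332.0, 1801.8 and 1544.4. In M-MDSC LD they were 2427.5, 2166.1 and 1994.0. Every M-MDSC LD library was above every M-MDSC Ctrl library, but this difference did not pass the test (0.50 ± 0.16, adjusted p = 0.123). The LD changes of the 2 populations differed from each other by -1.44 ± 0.23 in log2 (M-MDSC minus PMN-MDSC, adjusted p = 0.00724).

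Before LD, Ly6c2 was 3.02-fold higher in M-MDSC than in PMN-MDSC (adjusted p = 4.22e-07). After LD the ranges of the populations overlapped and the log2 difference was 0.15 ± 0.16 (adjusted p = 0.395). PMN-MDSC libraries therefore held 25.4% to 41.7% of the M-MDSC mean in Ctrl and 80.0% to 99.6% in LD. No other classical member went this way: in the same PMN-MDSC LD libraries Fn1 stood at 1.8% to 3.76%, F13a1 at 0.982% to 5.53% and Vcan at 0.345% to 5.56% of M-MDSC. Ccr2, the chemokine receptor of classical monocytes, stood at 1.51% to 3.63% there, and Irf8, a transcription factor of the monocyte line, at 2.58% to 5.1%. Both were picked with their values in view, and other classical monocyte genes outside the members were not low in PMN-MDSC. Of 18 tested, 9 were higher in M-MDSC than in PMN-MDSC in LD and 6 lower (38.8% and 36.1% of all genes). Lyz2 averaged 71701 in PMN-MDSC LD and 69469 in M-MDSC LD. These percentages rest on the size factors: normalized counts summed to 8572575 to 9071830 per library in M-MDSC LD and 13715662 to 15808125 in PMN-MDSC LD. As a share of all reads, Ly6c2 was lower in every PMN-MDSC LD library than in every M-MDSC LD library.

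**Figure D1:**
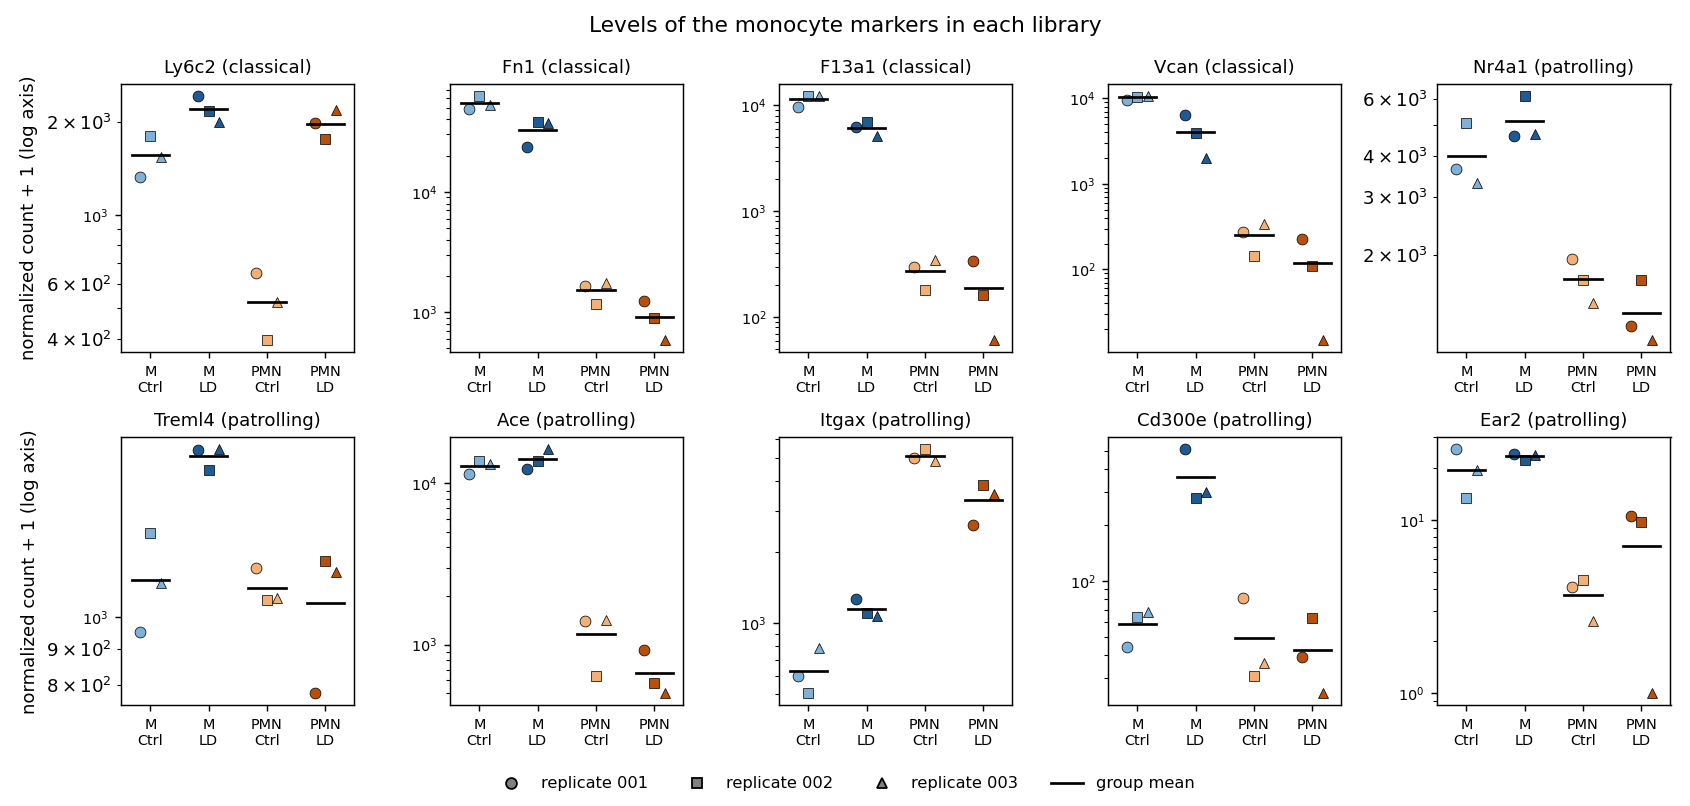
Normalized count + 1 of the 10 monocyte markers on log axes, 1 panel per gene. Points are the 3 libraries of each group (symbols give the replicate number) and bars are group means; Ly6c2 in the PMN-MDSC LD libraries lies at 1757.7 to 2187.6, beside M-MDSC LD, and Cd300e is high in M-MDSC LD alone.

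Fn1, F13a1 and Vcan were the members that set M-MDSC furthest apart from PMN-MDSC. Fn1 (chr1:71585520-71653200) encodes fibronectin, a matrix protein. Its M-MDSC Ctrl libraries read 48534, 62736 and 52516, and the PMN-MDSC Ctrl libraries 1646.5, 1169.9 and 1731.9, which is 36.3-fold less (log2 5.18 ± 0.24, adjusted p = 9.25e-11). F13a1 (chr13:36867178-37050244), the catalytic subunit of coagulation factor XIII, read 9698.4, 12224.9 and 12269.1 in M-MDSC Ctrl. In PMN-MDSC Ctrl it read 294.8, 181.1 and 346.4 (log2 5.42 ± 0.42, adjusted p = 2.51e-08). Vcan (chr13:89655312-89742509), the proteoglycan versican, read 9694.5, 10340.9 and 10706.2 in M-MDSC Ctrl and 275.4, 142.4 and 338.4 in PMN-MDSC Ctrl (log2 5.43 ± 0.70, adjusted p = 6.05e-06). No library of one population reached the range of the other for any of the 3 genes. For scale, 38.8% of all genes tested were called higher in M-MDSC than in PMN-MDSC in Ctrl.

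In M-MDSC none of the 3 genes passed the test after LD. Their LD libraries read lower than their Ctrl libraries, but how many of all genes separate in this way was not counted. The LD values of Fn1 were 23361.7, 37894.8 and 37055.7 (log2 -0.76 ± 0.24, adjusted p = 0.115). Those of F13a1 were 6298.1, 6985.6 and 5131.7 (-0.90 ± 0.42, adjusted p = 0.386). Vcan was the most variable, with LD values of 6304.6, 3899.9 and 1991.0 (-1.48 ± 0.70, adjusted p = 0.388). Fn1 passed with DESeq2 (adjusted p = 0.0303) and without PMN-MDSC LD replicate 001 (0.0449), and F13a1 passed when only the M-MDSC libraries were fitted (0.0174). Fn1 was lowest in M-MDSC LD replicate 001, the library with the highest progenitor, cell division and neutrophil sums, and its difference without that library was -0.53 (adjusted p = 0.371). F13a1 and Vcan were lowest in LD replicate 003 instead, and Vcan was highest in replicate 001. Without replicate 001 their differences were -0.92 (adjusted p = 0.506) and -1.88 (0.313). The part of the progenitor, cell division and neutrophil programmes in the lower values was not tested.

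In PMN-MDSC only Fn1 of the 3 passed the test after LD. Its LD values were 1230.8, 889.9 and 590.4, a decrease of 1.73-fold (log2 -0.79 ± 0.24, adjusted p = 0.0386), with an overlap between the groups. The call was lost without PMN-MDSC LD replicate 003 (log2 -0.51, adjusted p = 0.158), LD replicate 002 (0.0751), Ctrl replicate 001 (0.108) or Ctrl replicate 003 (0.148), and without M-MDSC Ctrl replicate 001 (0.0503) or 003 (0.0535). It was also lost with edgeR (0.0538), robust empirical Bayes (0.0781) and no minimum level (0.0672). F13a1 read 339.5, 161.8 and 60.3 in PMN-MDSC LD (log2 -0.82, adjusted p = 0.203), and Vcan read 225.9, 108.8 and 14.0 (-1.72, adjusted p = 0.111). Both turned on single libraries: without LD replicate 003 the differences were -0.17 (adjusted p = 0.737) and -0.59 (0.399), and without LD replicate 001, the PMN-MDSC library with the highest progenitor and cell division sums, they passed, at -1.41 (0.00917) and -2.55 (0.0128).

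The PMN-MDSC values of these genes were lowest in the same libraries as those of some other monocyte genes. Ccr2 read 392.7, 237.3 and 493.2 in the PMN-MDSC Ctrl libraries and 399.0, 341.2 and 165.5 in LD, and Irf8 read 105.1, 68.6 and 156.4 and then 121.7, 80.9 and 61.7. In Ctrl, replicate 002 was the lowest for Fn1, F13a1, Vcan, Ace, Ccr2 and Irf8. In LD, replicate 003 was the lowest for all 6. Not every monocyte gene went this way: Ccl9 was highest in Ctrl replicate 002 (137.1), and Tmem176b was lowest in LD replicate 002 (32.4). Ly6c2 was highest in LD replicate 003 (2187.6). The share of monocytes in the PMN-MDSC sort was not measured, and its part in these values was not tested.

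**Figure D2:**
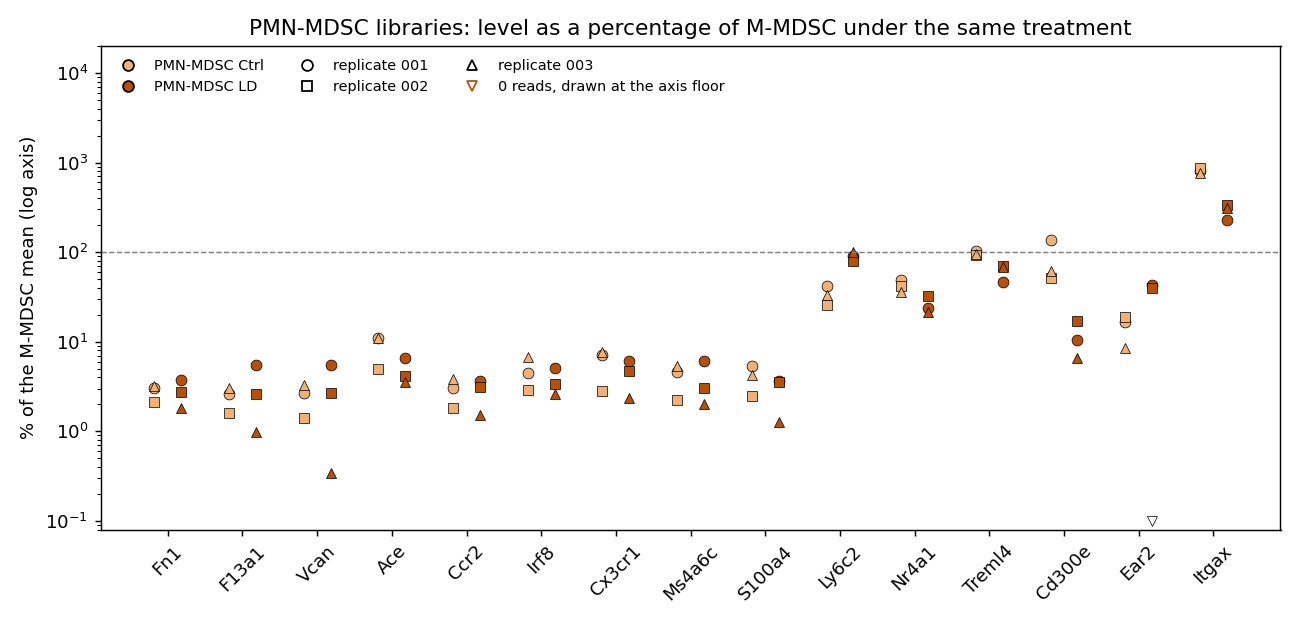
Level in each PMN-MDSC library as a percentage of the M-MDSC mean under the same treatment, log axis, for the 10 members and 5 other monocyte genes; light points are Ctrl, dark points LD, and the dashed line marks 100%. Fn1, F13a1, Vcan and the 5 other genes lie at 7.74% or lower in every library, Ly6c2 climbs to 80.0% to 99.6% in LD, and Itgax lies at 228% to 864%. The 5 other genes are a selection: of 18 other classical monocyte genes tested, 6 that are not drawn were higher in PMN-MDSC than in M-MDSC in LD.

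The patrolling markers were not a single block. Treml4, Itgax and Cd300e rose in M-MDSC after LD, while Nr4a1, Ace and Ear2 did not pass the test. Across all genes tested, 2.54% were called higher and 0.468% lower in M-MDSC after LD, against 3 higher and 0 lower of the 10 members by limma (4 and 1 at an unadjusted p under 0.05, 3 and 0 by edgeR, 3 and 1 by DESeq2). The median log2 difference was 0.34 over the 10 members and -0.04 over all genes. The members were proposed with results of these data in view, so these counts are a description.

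Cd300e (chr11:115051917-115062177), an activating receptor of myeloid cells carried by patrolling monocytes, changed most. It read 42.8, 63.2 and 67.3 in M-MDSC Ctrl. In M-MDSC LD it read 507.8, 278.5 and 299.5. No LD library came near the Ctrl range, and the rise was 6.06-fold (log2 2.60 ± 0.42, adjusted p = 0.00302). LD replicate 001 was highest, and without it the rise was 2.33 in log2 (adjusted p = 0.0169). In PMN-MDSC the values were 79.6, 29.9 and 35.1 in Ctrl and 37.9, 61.8 and 23.8 in LD (-0.19 ± 0.42, adjusted p = 0.8).

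The LD changes of Cd300e differed between the populations by 2.79 ± 0.59 in log2 (adjusted p = 0.0281). This call did not survive the removal of any of 6 libraries: M-MDSC Ctrl replicate 001 (adjusted p = 0.0725) or 002 (0.0594), LD replicate 001 (0.0501) or 003 (0.0532) of the same cells, and, of PMN-MDSC, Ctrl replicate 001 (0.0558) or LD replicate 003 (0.0568). Before LD the ranges of Cd300e in the populations overlapped (log2 0.36 ± 0.42, adjusted p = 0.437). After LD it was 8.90-fold higher in M-MDSC (adjusted p = 7.64e-06).

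Itgax (chr7:128129547-128150657), the integrin CD11c, went up in one population and down in the other. M-MDSC Ctrl libraries read 598.6, 504.3 and 786.5, and LD libraries 1264.8, 1104.7 and 1070.9. The rise was 1.85-fold without overlap (log2 0.88 ± 0.16, adjusted p = 0.00611), and 0.81 (adjusted p = 0.0261) without M-MDSC LD replicate 001. PMN-MDSC Ctrl libraries read 5003.6, 5443.2 and 4858.9, and LD libraries 2613.1, 3847.8 and 3540.8. Here every LD library was lower, by 1.55-fold (-0.63 ± 0.16, adjusted p = 0.0156), a call lost without PMN-MDSC Ctrl replicate 002 (-0.58, adjusted p = 0.0601). The difference between these changes was 1.52 ± 0.22 (adjusted p = 0.00561) and passed on removal of any of the 12 libraries.

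Itgax was also the one member that PMN-MDSC held at the higher level, 8.22-fold above M-MDSC in Ctrl (adjusted p = 2.97e-10) and 2.87-fold in LD (adjusted p = 5.53e-07). Itgax marks dendritic cells as well as patrolling monocytes. The summed level of 12 dendritic cell genes was 1422 to 1897 in M-MDSC Ctrl and 1361 to 1472 in M-MDSC LD. Of the 8 that could be tested, 0 were called higher by limma, edgeR or DESeq2 or had an unadjusted p under 0.05 in limma. Xcr1, Siglech, Ccr9 and Ccr7 were too low to test, and the part of dendritic cell RNA in the Itgax value was not tested. All 9 neutrophil genes were also higher in PMN-MDSC than in M-MDSC in Ctrl. In M-MDSC after LD, 3 of them were called higher and 1 lower (2.54% and 0.468% of all genes). Their part in the Itgax value was not tested.

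Treml4 (chr17:48264295-48275360), a receptor carried by patrolling monocytes and some splenic macrophages and dendritic cells, rose by less. M-MDSC Ctrl libraries read 951.4, 1318.6 and 1116.9, and LD libraries 1732.1, 1623.5 and 1734.9. The groups did not overlap and the rise was 1.51-fold (log2 0.60 ± 0.15, adjusted p = 0.0459). The call was close to the threshold: it was lost with no minimum level (0.0857) and on removing Ctrl replicate 001 (0.48, adjusted p = 0.209) or 003 (0.132) of M-MDSC, any of its LD replicates (0.12 for 001, 0.069 for 002 and 0.132 for 003), or any PMN-MDSC Ctrl replicate (0.0647, 0.069 and 0.0663). PMN-MDSC libraries read 1173.1, 1057.4 and 1064.7 in Ctrl and 776.4, 1201.7 and 1158.3 in LD, with overlap (-0.10 ± 0.15, adjusted p = 0.708). The difference between the LD changes, 0.70 ± 0.21, did not pass (adjusted p = 0.1).

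In Ctrl the Treml4 ranges of the populations overlapped (log2 0.03 ± 0.15, adjusted p = 0.87). In LD it was 1.65-fold higher in M-MDSC (adjusted p = 0.000533). Splenic macrophage genes rose in part in M-MDSC LD: 4 of 11 tested were called higher (Vcam1, C1qa, C1qc and Slc40a1) and 0 lower. Across all genes tested, 2.54% were called higher and 0.468% lower. The summed level of the macrophage list was 2701 to 2938 in Ctrl and 3024 to 3179 in LD. The part of macrophage RNA in the Treml4 value was not tested.

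Nr4a1 (chr15:101254269-101274795), the nuclear receptor on which patrolling monocytes depend, was higher in M-MDSC than in PMN-MDSC and did not pass the test for LD in either. M-MDSC Ctrl libraries read 3648.5, 5063.7 and 3317.6, and LD libraries 4618.9, 6128.9 and 4695.3 (log2 0.37 ± 0.18, adjusted p = 0.406). PMN-MDSC libraries read 1945.3, 1678.8 and 1428.6, and in LD 1210.5, 1672.4 and 1099.4 (-0.36 ± 0.18, adjusted p = 0.199). The ranges overlapped in both. Between populations Nr4a1 was 2.36-fold higher in M-MDSC in Ctrl (adjusted p = 2.14e-05) and 3.91-fold in LD (adjusted p = 1.62e-07). Its relatives Nr4a2 and Nr4a3 had means of 0.0 to 10.5 in the 4 groups, too low to test.

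Ace (chr11:105967945-105989964), angiotensin-converting enzyme, was the patrolling marker with the highest level in M-MDSC. M-MDSC Ctrl libraries read 11393.6, 13776.0 and 13149.2, and LD libraries 12303.5, 13717.3 and 16183.2 (log2 0.13 ± 0.27, adjusted p = 0.947). The ranges overlapped. PMN-MDSC libraries read 1397.5, 641.6 and 1423.8 in Ctrl and 927.9, 575.1 and 497.8 in LD (-0.75 ± 0.27, adjusted p = 0.0682). That difference passed with DESeq2 (0.0175), without PMN-MDSC Ctrl replicate 002 (-1.13, 0.0062) and without PMN-MDSC LD replicate 001 (-1.02, 0.0145). Ace was 11.7-fold higher in M-MDSC than in PMN-MDSC in Ctrl (adjusted p = 1.6e-08) and 21.7-fold in LD (adjusted p = 1.5e-09).

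Ear2 (chr14:44102654-44103534), an eosinophil-associated ribonuclease, was close to the limit of detection. It had 13 to 38 reads per library in M-MDSC Ctrl, 23 to 32 in M-MDSC LD, 1 to 4 in PMN-MDSC Ctrl and 0 to 7 in PMN-MDSC LD. The LD differences were 0.31 ± 0.79 in M-MDSC and 0.37 ± 0.79 in PMN-MDSC (adjusted p = 0.966 and 0.794) and a change was not detectable at this depth. Ear2 was higher in M-MDSC than in PMN-MDSC in Ctrl (log2 2.38 ± 0.79, adjusted p = 0.0139) and in LD (2.32 ± 0.79, adjusted p = 0.0163), but not without M-MDSC Ctrl replicate 001 in Ctrl (2.16, 0.0523) or PMN-MDSC LD replicate 003 in LD (1.20, 0.0692). Replicate 003 of PMN-MDSC LD had 0 reads, which allows up to 4.21 normalized counts.

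**Figure D3:**
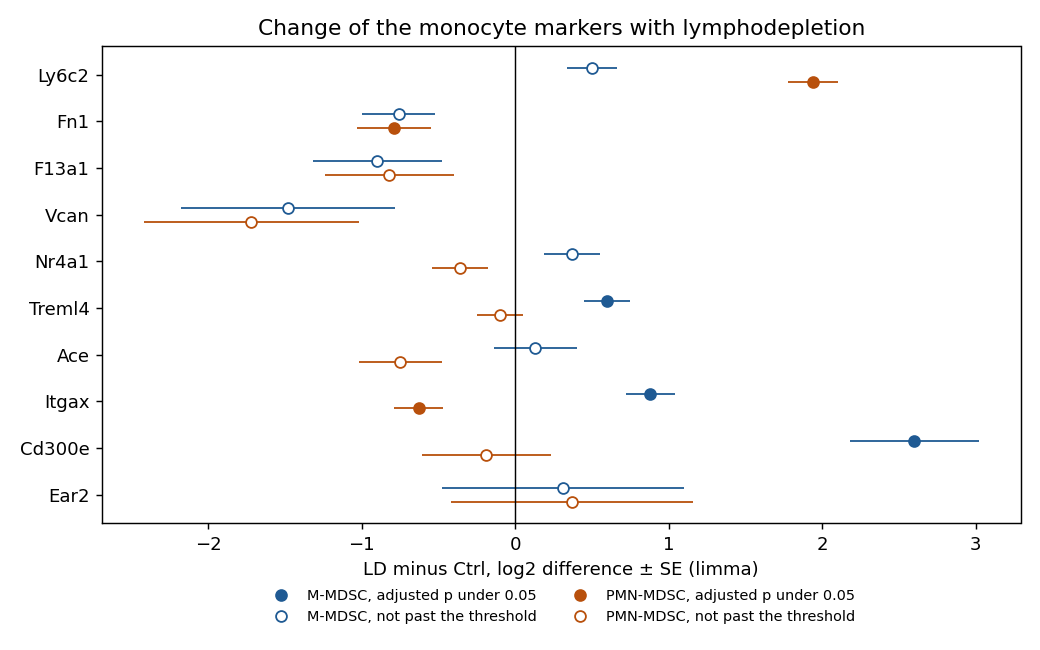
Log2 difference LD minus Ctrl ± SE of the 10 members in M-MDSC (blue) and PMN-MDSC (orange), with 3 libraries per group. The SE is from the limma fit of all 4 groups, which share the spread of each gene. Filled points passed an adjusted p of 0.05. Cd300e, Itgax and Treml4 are filled to the right in M-MDSC, and in PMN-MDSC Ly6c2 is filled to the right and Fn1 and Itgax to the left.

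Counted over the members, LD raised 1 of 10 (Ly6c2) and lowered 2 (Fn1 and Itgax) in PMN-MDSC, where 7.17% of all genes tested were called higher and 8.51% lower. The median log2 difference was -0.49 over the members and -0.05 over all genes. The LD changes of 3 members differed between the populations (Ly6c2, Itgax and Cd300e), against 2.25% of all genes. M-MDSC held 7 members at a higher level than PMN-MDSC in Ctrl and 1 lower, when 38.8% of all genes were called higher and 36.8% lower. In LD they held 8 higher and 1 lower, with 38.8% of all genes called higher and 36.1% lower. The members' medians were 1.99 in Ctrl and 2.74 in LD, and those of all genes 0.06 and 0.10. Treml4 and Cd300e were not called in Ctrl, and Ly6c2 was not called in LD.

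Divided by exon length, to compare levels between genes, the members kept a broad order in M-MDSC with a few exchanges. In M-MDSC Ctrl the order was Fn1 (6439 normalized counts per kilobase), F13a1 (2848), Ace (2416), Ly6c2 (1797), Nr4a1 (1405), Vcan (738), Treml4 (646), Itgax (145), Cd300e (27.7) and Ear2 (25.8). The ranges over libraries overlapped between F13a1 and Ace, Ly6c2 and Nr4a1, Vcan and Treml4, and Cd300e and Ear2. In M-MDSC LD, Ace (2661 per kilobase) and Ly6c2 (2530) were next to Fn1 (3865), F13a1 (1534) came after Nr4a1 (1803), and Treml4 (971) came before Vcan (293). There the ranges of Fn1, Ace and Ly6c2 overlapped from neighbour to neighbour, as did those of Nr4a1 and F13a1 and of Vcan and Itgax (265), while Cd300e (173) was clear of Ear2 (31.1).

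In PMN-MDSC the order was another one. Itgax led in Ctrl (1177 per kilobase), followed by Treml4 (629), Ly6c2 (602) and Nr4a1 (590), whose ranges overlapped, and then by Ace (218) and Fn1 (179), whose ranges also overlapped. F13a1 (68.5), Cd300e (23.1), Vcan (18.1) and Ear2 (3.79) were last. In LD, Ly6c2 (2275 per kilobase) led with no overlap with Itgax (769). Itgax, Treml4 (598) and Nr4a1 (465) overlapped from neighbour to neighbour, and so did all 6 members below them, from Ace (126) to Vcan (8.37).

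Within a library, ratios of members do not depend on the scaling. The Ly6c2 to Treml4 ratio was 1.37 to 1.40 in M-MDSC Ctrl and 1.15 to 1.40 in M-MDSC LD. In PMN-MDSC it went from 0.374 to 0.554 in Ctrl to 1.46 to 2.55 in LD. The Ly6c2 to Fn1 ratio was 0.0274 to 0.0294 in M-MDSC Ctrl and 0.0538 to 0.104 in M-MDSC LD, higher in every LD library than in any Ctrl library.

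Other genes of the monocyte programme come from lists drawn up with earlier results of these data known. Of 18 other classical monocyte genes tested, 0 were called higher and 1 lower in M-MDSC after LD (2.54% and 0.468% of all genes, median log2 -0.11 against -0.04), with the same counts by edgeR and DESeq2 and 0 higher and 2 lower at an unadjusted limma p under 0.05. In PMN-MDSC, 4 of the 18 were called higher (Plac8, Mgst1, Cd14 and Lyz2) and 1 lower (Il13ra1), against 7.17% and 8.51% of all genes. Lyz2, the lysozyme of myeloid cells, went from 26664 to 71701 normalized counts (1.43 ± 0.16, adjusted p = 0.000105), against 66089 and 69469 in M-MDSC. Mgst1, a microsomal glutathione transferase, went from 1038.0 to 2915 (1.46 ± 0.20, adjusted p = 0.000532). Plac8 rose by 0.91 ± 0.12 (adjusted p = 0.000382), and Il13ra1, a chain of the interleukin-13 receptor, fell by 0.75 ± 0.15 (adjusted p = 0.00489).

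In Ctrl, 11 of the 18 were higher in M-MDSC and 5 were higher in PMN-MDSC (among them Clec4e, Cd14, Hp and Il13ra1), against 38.8% and 36.8% of all genes. The named extremes were Ccr2 (log2 5.16 ± 0.28, adjusted p = 4.32e-10) and Plac8 (3.08 ± 0.12, adjusted p = 1.97e-11) toward M-MDSC. Toward PMN-MDSC the haemoglobin scavenger Hp was named (-1.99 ± 0.10, adjusted p = 2.96e-10).

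Of 22 other patrolling monocyte genes tested, 7 were called higher in M-MDSC after LD and 0 lower by limma, against 2.54% and 0.468% of all genes, with a median log2 difference of 0.41 against -0.04. The counts were 8 and 0 by edgeR, 11 and 0 by DESeq2, and 12 and 0 at an unadjusted limma p under 0.05. Eno3, an enolase, went from 343 to 761 normalized counts (1.12 ± 0.22, adjusted p = 0.0102). Pglyrp1, a peptidoglycan-binding protein that neutrophils also store, went from 183 to 630 (1.74 ± 0.23, adjusted p = 0.000761). The tetraspanin Cd9 went from 69.3 to 170 (1.22 ± 0.26, adjusted p = 0.0192), and the phosphatase Dusp16 from 390 to 796 (1.0 ± 0.22, adjusted p = 0.021). The other 3 were Spn, Fcgr4 and Cebpb, which encodes C/EBP beta (0.41, adjusted p = 0.0357). Of the 7, Fcgr4, Pglyrp1, Cebpb, Cd9 and Dusp16 were higher in PMN-MDSC than in M-MDSC in Ctrl, as was Itgax among the members. Of the 9 neutrophil genes, 3 were called higher (Retnlg, S100a8 and S100a9) and 1 lower (Mmp8) in M-MDSC after LD, and their part in these rises was not tested.

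Several of these calls were lost on removal of certain single libraries. For Cd9 these were the M-MDSC Ctrl replicates 001 (adjusted p = 0.0909 on removal) and 003 (0.0861) and the LD replicates 001 (0.054) and 003 (0.0546), and the call was also lost when only the M-MDSC libraries were fitted (0.103). For Dusp16 they were Ctrl replicates 001 (0.0658) and 002 (0.0897) and LD replicates 001 (0.0848) and 003 (0.069), and for Eno3 Ctrl replicate 002 (0.0505). Pglyrp1 passed whichever library was removed. The calls of Spn, Fcgr4 and Cebpb were not followed with libraries left out.

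In PMN-MDSC 3 of the 22 were called higher after LD (Spn, Ceacam1 and Pglyrp1) and 6 lower (S1pr5, Eno3, Gngt2, Pou2f2, Klf2 and Slc12a2), against 7.17% and 8.51% of all genes, with a median of -0.30 against -0.05. Gngt2, a G-protein gamma subunit, fell by 0.71 ± 0.11 (adjusted p = 0.00115), Eno3 fell by 1.17 ± 0.22 (adjusted p = 0.00322) and the ion transporter Slc12a2 fell by 1.66 ± 0.32 (adjusted p = 0.00384). The adhesion molecule Ceacam1 rose by 0.81 ± 0.11 (adjusted p = 0.000585). The LD changes differed between the populations for 5 of the 22 (S1pr5, Eno3, Gngt2, Cebpb and Slc12a2), against 2.25% of all genes, each with the higher change in M-MDSC. Eno3 differed most clearly, by 2.30 in log2 (adjusted p = 0.00225), which is the pattern seen for Itgax: up in M-MDSC and down in PMN-MDSC.

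**Figure D4:**
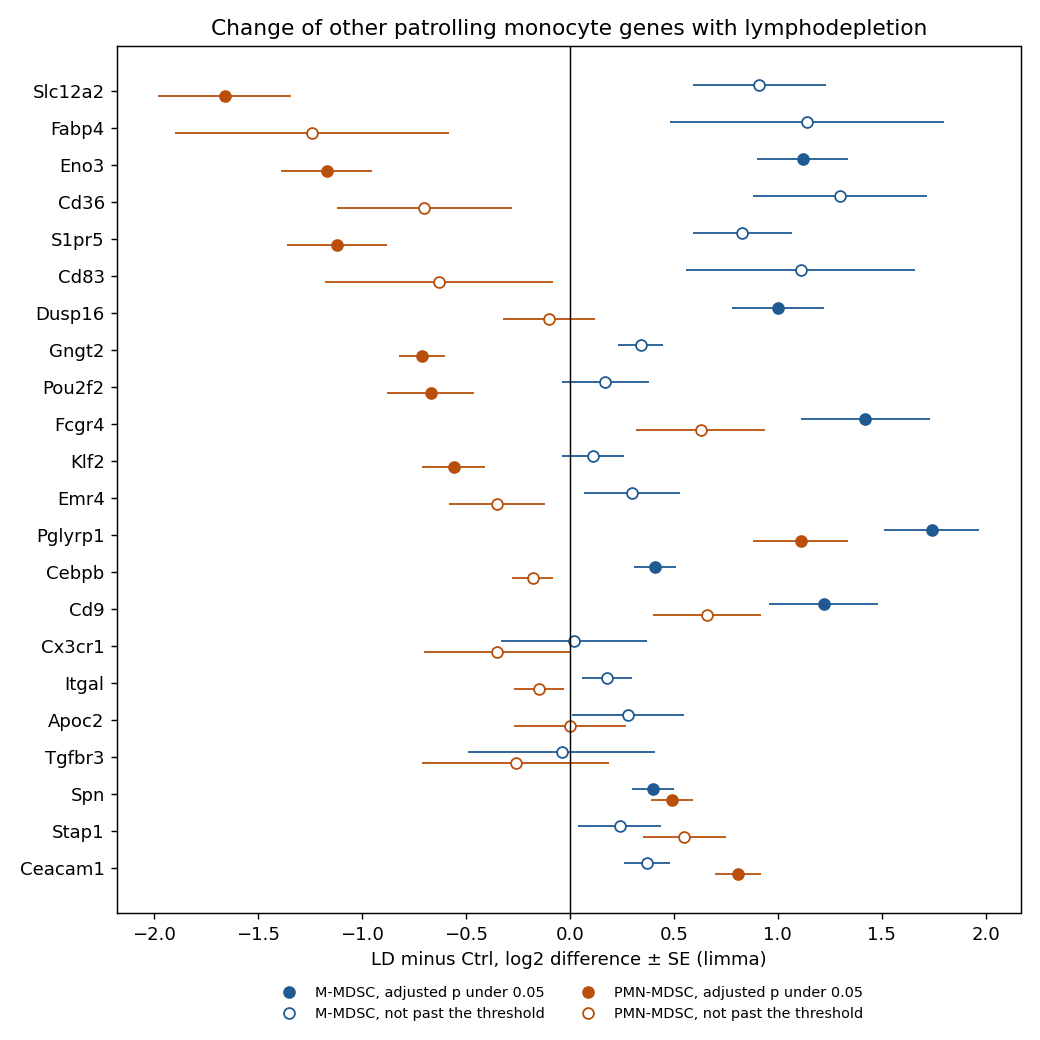
Log2 difference LD minus Ctrl ± SE (limma) of 22 other patrolling monocyte genes in M-MDSC (blue) and PMN-MDSC (orange), ordered by the difference between the populations; filled points passed an adjusted p of 0.05. The 7 filled M-MDSC points all lie right of 0, and the filled PMN-MDSC points lie on both sides, 6 left and 3 right.

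Of 12 regulators of monocyte development tested, limma, edgeR and DESeq2 called 0 in either direction in M-MDSC after LD (limma: 2.54% higher and 0.468% lower of all genes). At an unadjusted limma p under 0.05, 1 was higher. That was Tcf7l2, a transcription factor of Wnt signalling, named after its values were seen. It read 274 to 344 in M-MDSC Ctrl and 580 to 972 in M-MDSC LD, with no overlap (log2 1.39 ± 0.42, adjusted p = 0.0978). Its LD difference in PMN-MDSC was 1.22 ± 0.42 (adjusted p = 0.0618), with overlap. The difference between these changes did not pass (0.16 ± 0.59, adjusted p = 0.92). In PMN-MDSC limma called 0 of the 12 higher (1 by edgeR, by DESeq2 and at an unadjusted limma p under 0.05) and 3 lower, against 7.17% and 8.51% of all genes. The 3 were Zeb2, a transcriptional repressor that takes part in monocyte development (-1.07 ± 0.11, adjusted p = 7.9e-05), the M-CSF receptor Csf1r (-0.49 ± 0.10, adjusted p = 0.00594) and the interferon gamma receptor chain Ifngr1 (-0.52 ± 0.12, adjusted p = 0.0103). For Zeb2 and Csf1r the LD changes differed between the populations (adjusted p = 0.00956 and 0.0433). In Ctrl, Irf8 was higher in M-MDSC (log2 4.48 ± 0.28, adjusted p = 2.63e-09). Sfpi1, the gene of PU.1, was higher in PMN-MDSC (-1.54 ± 0.10, adjusted p = 2.85e-09).

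The genes whose pattern over the 12 libraries was most like each member were taken by the distance between centred log2 values, a description in which most of the likeness comes from the gap between the populations. Nearest to Ly6c2 were Srebf2 (distance 0.98), a regulator of sterol synthesis, Lyz2 (1.10) and Cybb (1.20), a subunit of the phagocyte oxidase. Nearest to Itgax were Cd274 (0.59), which encodes PD-L1, Slc20a1 (0.82) and Slco3a1 (0.88). Cd274 read 204 in M-MDSC Ctrl, 389 in M-MDSC LD, 1482 in PMN-MDSC Ctrl and 1101 in PMN-MDSC LD. Nearest to Cd300e were Ly6a (2.18), Cxcl9 (2.45) and Bcl2a1d (2.49), with M-MDSC means that went from 22.3 to 99.1, from 21.4 to 97.0 and from 59.0 to 184 after LD.

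For Fn1 the nearest genes were Arhgef37 (1.07), Ccr2 (1.11) and Ccdc109b (1.19), and for F13a1 Fam129b (1.20), Ptpro (1.22) and Ccr2 (1.42). For Vcan, which varied most of the members (its own distance from a flat profile was 10.51), the nearest were Lpxn (2.17), Clec2i (2.20) and Lamc1 (2.30). Ace lay near Evl (0.73), Ccdc50 (0.80) and Adrbk2 (0.82), Nr4a1 near Slc25a25 (0.71), Tbc1d13 (0.74) and Atmin (0.79), and Ear2 near Gga2 (1.35), Guca1a (1.65) and Pea15a (1.77). Treml4, which varied least (its own distance from a flat profile was 1.16), lay near Plagl2 (0.68), Ebna1bp2 (0.72) and Mfsd5 (0.73).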

How the data were processed

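Total RNA of 12 sorted samples was sequenced after ribosomal RNA depletion from 100 ng of RNA, per the labels' protocols. The authors deposited 1 table of 23479 genes, a signal in which reads per gene are divided by 1 size factor per library. The submitters' processing notes name DESeq2, HTSeq 0.6.1, STAR 2.5.3a and the build mm10, and give no role or order. Strand is not given in the sources used here. Whole reads were recovered from the deposited values: 100% were whole within 0.001 reads, and 3377 genes had 0 reads.

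Differences were tested on log2(normalized count + 1) with limma 3.58.1 (R 4.3.3) on genes with a mean of at least 10, with 4 group means, empirical Bayes with a trend, Benjamini-Hochberg adjustment over 11122 genes and a two-sided threshold of 0.05. All 4 groups shared the spread of each gene, so the libraries of each population enter the SE for both. Changes of low genes are understated on this scale. In all text, an adjusted p without a tool is from limma. The series' design text counts 3 mice per arm, but no label ties a library to a mouse, so p-values may measure technical spread. Replicates differed beyond sampling noise in every pair.

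The members and all gene lists were chosen with earlier results of these data known. Named genes are the 10 members, up to 4 genes of each list that pass a comparison, by smallest adjusted p, and the 3 genes nearest to each member. Genes that only name the members of a count were picked with their values in view. Not all listed genes are reported here, and Ly6g was not analysed here. Exon lengths and coding sequences are from GENCODE for GRCm38 and promoters from RefSeq for GRCm38.p6. The settings varied were the pseudocount (0.5 or 8), the minimum (none or a mean of 50), TMM scaling, robust empirical Bayes, 2 replicate blocks, the compared groups alone, each library left out, and count tests on the recovered reads with edgeR 4.0.16 and DESeq2 1.42.0. For LD in M-MDSC, LD in PMN-MDSC and the difference between them, limma called 335, 1745 and 250 genes, edgeR 420, 1659 and 284, and DESeq2 725, 2167 and 701. The fit was tested on simulated data.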

Additional observations from a re-analysis of the deposited data

Results flagged for a closer look

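The LD changes of 3 members differed between M-MDSC and PMN-MDSC by a test of the difference itself. For Ly6c2 the change in M-MDSC minus that in PMN-MDSC was -1.44 in log2, from a rise in PMN-MDSC that passed and a smaller one in M-MDSC that did not. For Itgax it was 1.52, with a rise in M-MDSC and a decrease in PMN-MDSC that each passed. For Cd300e it was 2.79, with a rise in M-MDSC that passed and no detected change in PMN-MDSC, where levels were 23.8 to 79.6 normalized counts.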

How the results depend on the processing

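Over the 10 members, 502 of the values under other settings and 549 of those with 1 library left out kept their direction and their side of the threshold, 6 and 23 lost a call, 4 and 6 gained one, and 3 and 22 turned direction. The calls of Ly6c2 in PMN-MDSC, of Itgax and Cd300e in M-MDSC and of the differences for Ly6c2 and Itgax held under every setting run. The number of genes called for LD in M-MDSC was 335, with 725 by DESeq2 and 192 to 549 with 1 library left out (192 without M-MDSC Ctrl replicate 001, 199 without Ctrl 003, 217 without LD 003 and 549 without PMN-MDSC LD 001). For LD in PMN-MDSC it was 1745, with 890 to 2162 (890 without PMN-MDSC Ctrl 003 and 1101 without Ctrl 002). For the difference it was 250, with 125 at no minimum level, 701 by DESeq2, 536 with a replicate block by presumed animal and 113 to 832 with 1 library left out (832 without PMN-MDSC LD 001). Deviations of same-numbered libraries of the populations correlated at 0.21, 0.12 and 0.07 in LD, where each library correlated best with its own number. In Ctrl they correlated at -0.04, 0.05 and 0.13. Libraries of the same number may share a mouse, but no label says so, and the main tests treated all libraries as unpaired. A replicate block by number called 373, 1657 and 213 genes for the 3 comparisons, and 8365 and 8277 between the populations in Ctrl and LD, where 8407 and 8323 were called without it. With the block by presumed animal the difference of the LD changes of Nr4a1 passed (0.73, adjusted p = 0.0238); without PMN-MDSC Ctrl 002 that of Ace did (1.27, 0.0481). With the block by number Fn1 in PMN-MDSC did not pass (-0.79, adjusted p = 0.0539). Ear2 between the populations in LD was lost when only those groups were fitted (0.0507).

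The values that turned direction had not passed the test, and the cause was not tested. For LD in PMN-MDSC they were Treml4 (0.10 without LD 001), Cd300e (0.23 without Ctrl 001, 0.14 without LD 003, range -0.53 to 0.23) and Ear2 (-0.21 and -0.16 without LD 001 and 002, range -0.21 to 1.48). For the difference they were Fn1 (-0.05, -0.10, -0.08, -0.04, -0.08 and -0.25, range -0.25 to 0.28), F13a1 (0.05, 0.20 and 0.51, range -0.72 to 0.51), Vcan (-0.15, -0.02 and -0.89, range -0.89 to 1.07) and Ear2 (0.16, 0.18, 0.52 and 0.47, range -1.18 to 0.52) with 1 library left out, Vcan by edgeR (-0.25) and DESeq2 (-0.22), and Ear2 with a pseudocount of 0.5 (0.10). Treml4 between the populations in Ctrl was -0.09 without M-MDSC Ctrl 002 (range -0.09 to 0.15). Depth limits Ear2 most, with at most 38 reads per library.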
